A study of Mus musculus with 12 samples.

Results

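The genes described here encode proteins that the colonic epithelium places between itself and the bacteria of the lumen, namely the lectins Reg3b, Reg3g and Reg4, the flagellum-binding protein Lypd8, the enzymes Ang4 and Lyz1, the peptidoglycan-binding protein Pglyrp1, the small inhibitors Slpi and Wfdc2, and the immunoglobulin receptor Pigr. They were found by symbol among probe sets that carried exactly 1 gene, and 10 of 10 were measured, each by 1 probe set, among 19938 genes in all. They were chosen by symbol, with no threshold on their values. RNA was measured on 12 arrays, 1 for each colon, from male wild-type C57BL/6 mice that were 7 weeks old at the start and are listed at 8 weeks and 3 days, in 4 groups of 3. Dextran sulfate sodium (DSS), a polymer toxic to the lining of the colon, was added at 4% to the water of the DSS and DSS+L-Arg groups for 6 days. On the last 4 days of this 10-day protocol DSS mice drank water and DSS+L-Arg mice drank 1% L-arginine (L-Arg). Ctrl mice received neither agent, and Ctrl+L-Arg mice received L-Arg without DSS. The labels give the tissue as a piece of the colon, the methods of the study describe RNA samples that pooled a proximal with a distal piece of each colon, and the comparisons ask what DSS and then L-Arg did to its RNA. Because whole tissue was used, fewer cells of a type and less RNA per cell cannot be told apart in any value below.

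Epithelial antimicrobial proteins keep bacteria away from the surface in several ways. Reg3b and Reg3g are secreted C-type lectins that bind and kill bacteria, and they are known targets of IL-22 and STAT3 signaling and of MyD88-dependent sensing of microbes. Lypd8 sits on the luminal surface of colonocytes and binds bacterial flagella. Lysozyme and Ang4 attack bacteria directly, Pglyrp1 binds peptidoglycan, and Slpi inhibits neutrophil elastase besides acting on bacteria. Pigr carries polymeric IgA across the epithelium into the lumen.

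Reg3b and Reg3g lie at either end of a row of 6 Reg genes in the RefSeq gene order, with Reg3d, Reg3a, Reg2 and Reg1 between them. The 250 bases before the annotated start of each gene are shown because these lectins had the same order of group means, although no difference passed the test, and those of Slpi because its RNA passed the test after DSS. The sequences are from RefSeq (GRCm38.p6), read 5′ to 3′ on the strand of the gene, and the capitals mark matches to the motifs searched on both strands, which are TTCNNNGAA (a palindrome bound by STAT factors), TATAAA, and the NF-kB consensus. Positions are counted back from -1, the base before the start. No matches overlapped each other in these genes.
Reg3b (chr6:78370635-78370884, plus strand): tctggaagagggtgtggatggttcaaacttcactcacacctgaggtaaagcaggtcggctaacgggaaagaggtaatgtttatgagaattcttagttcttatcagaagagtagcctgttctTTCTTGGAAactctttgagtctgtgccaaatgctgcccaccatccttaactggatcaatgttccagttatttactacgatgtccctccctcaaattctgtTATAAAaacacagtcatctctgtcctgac
Reg3g (chr6:78468875-78469124, minus strand): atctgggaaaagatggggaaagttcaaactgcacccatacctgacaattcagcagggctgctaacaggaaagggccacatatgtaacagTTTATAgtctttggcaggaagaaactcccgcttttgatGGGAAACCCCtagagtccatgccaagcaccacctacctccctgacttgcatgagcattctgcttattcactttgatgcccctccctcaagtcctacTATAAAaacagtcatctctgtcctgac
Slpi (chr2:164356508-164356757, minus strand): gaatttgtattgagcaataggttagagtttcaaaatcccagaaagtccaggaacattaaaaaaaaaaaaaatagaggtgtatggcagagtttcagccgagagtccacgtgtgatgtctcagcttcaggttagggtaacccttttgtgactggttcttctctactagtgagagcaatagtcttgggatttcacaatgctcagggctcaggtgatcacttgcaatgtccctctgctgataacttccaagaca
Reg3b and Reg3g were identical at 177 of 243 aligned bases (72.8%), with 14 gapped positions, and they shared a run of 20 bases, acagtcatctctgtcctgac, just before the start. Each had TATAAA near the start, at -29 to -24 in Reg3b and at -27 to -22 in Reg3g, and Reg3g held it on the other strand at -161 to -156. Of the promoters of 27025 genes in the table, 14.3% held TATAAA in this window. The STAT palindrome was matched in Reg3b at -129 to -121 (TTCTTGGAA) and in Ang4 at -192 to -184 (TTCCCTGAA), against 8.13% of all genes. The NF-kB consensus was matched in Reg3g at -123 to -114 (GGGAAACCCC) and in Pglyrp1 at -93 to -84 (GGAAAGTCCC), against 4.46% of all genes. Slpi held none of these letters in its window.

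The values are log2 signals from robust multi-array averaging (RMA), so a difference of 1 is a doubling, and levels are compared between mice for a given gene and not between genes. The array medians lay between 6.49 and 6.64, and the arrays carry no read depth, so precision rests on the number of mice. Markers of the colonic epithelium were present in every mouse, with Krt20, a keratin of mature colonocytes, between 12.53 and 13.09 and Cdx2, an intestinal transcription factor, between 11.37 and 12.08. None of the 18 measured epithelial markers passed the test in any comparison between pairs of groups. In the comparison of all mice given DSS with all others, 1 of the 18 rose. Markers of other cell types differed between groups. The median of 20 neutrophil markers lay 1.77 to 4.18 above the Ctrl mean in DSS mice and 0.14 to 0.52 above it in DSS+L-Arg mice, and that of 21 monocyte and macrophage markers lay 0.97 to 1.47 and 0.18 to 0.26 above it. The median of 12 smooth muscle markers was lower, with a difference from the Ctrl mean of -1.50 to -0.69 in DSS mice, -1.16 to -0.27 in DSS+L-Arg mice, -0.65 to 1.09 in Ctrl+L-Arg mice and -0.40 to 0.74 in Ctrl mice. None of the 12 passed between pairs of groups, and 4 of the 12 fell in the comparison of all mice given DSS with all others. Ctrl mouse 2 stood apart in markers of male accessory glands, with a median 1.91 above the Ctrl mean of these genes, while the other mice lay 0.99 to 1.62 below it. In their summed signal, on the log2 scale, Ctrl mouse 3 was also high. It was at 12.04, with 13.45 in Ctrl mouse 2 and 9.40 to 10.57 in the remaining mice.

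**Figure D1:**
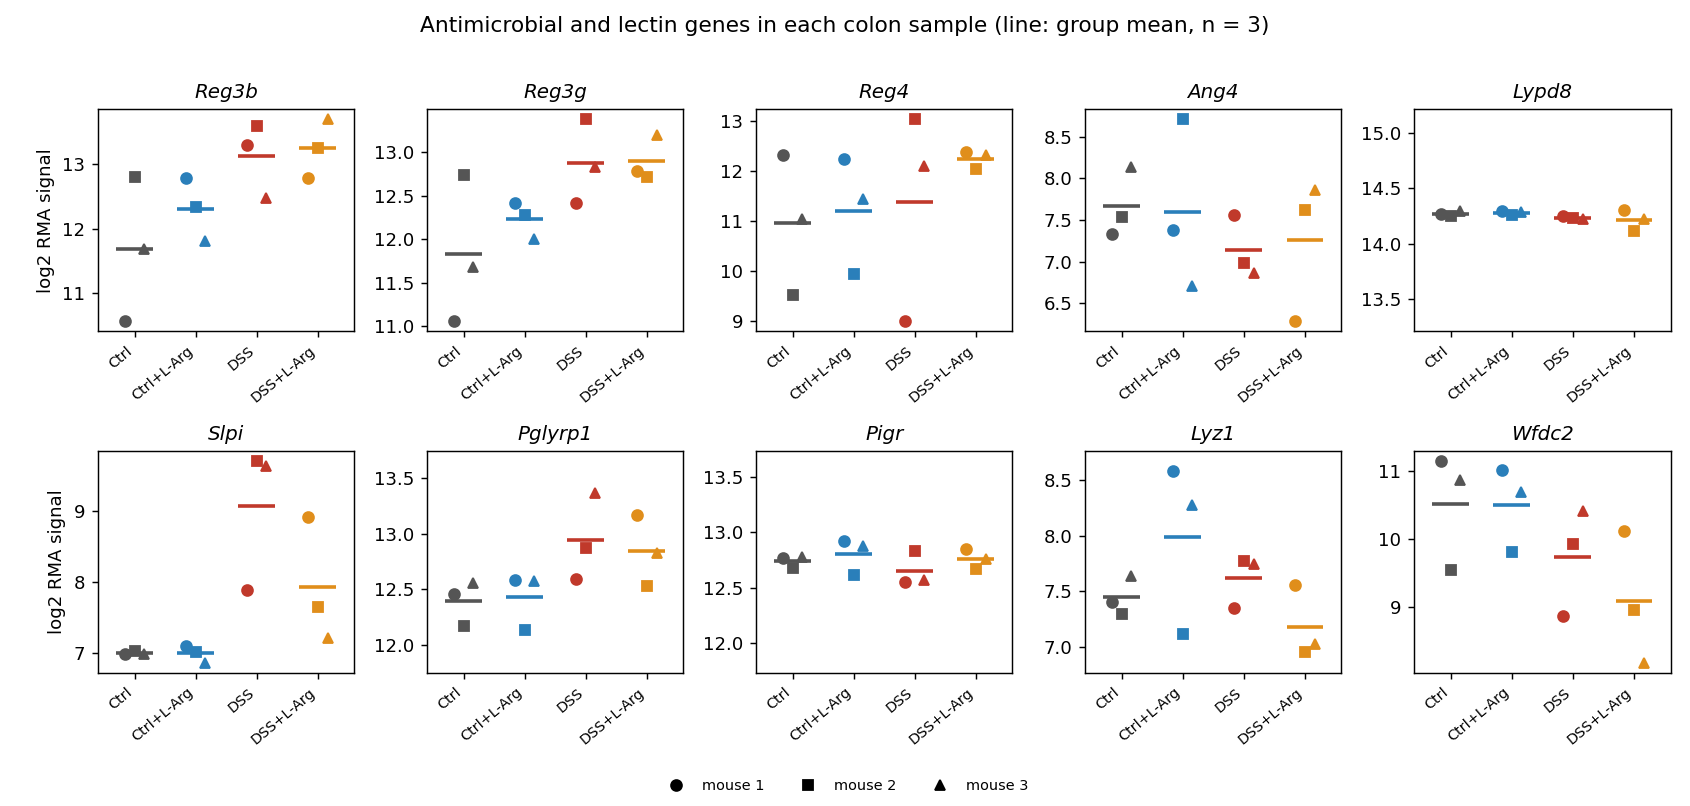
Log2 RMA signal of the 10 genes in each of 12 colon samples, with 1 point per mouse, a line at the mean of each group of 3, and axes that span at least 2 log2 units; a symbol names a mouse within its group and links no mice across groups. Slpi was flat at 6.86 to 7.10 in the mice without DSS and reached 9.72 in a DSS mouse, Lypd8 and Pigr hardly varied, and Reg4 varied by over 2 units within Ctrl, Ctrl+L-Arg and DSS.

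After DSS the RNA of Slpi rose, and it was the only gene of the 10 to pass the test. Reg3b, Reg3g and Pglyrp1 had higher means in DSS than in Ctrl mice but did not pass, and Lypd8 and Pigr differed by little. Lyz1, Reg4, Ang4 and Wfdc2 did not pass either, and their wider intervals spanned 0 and show neither a change nor its absence. By limma, 1 of 10 genes was called at an adjusted p under 0.05 over all genes, where 4.03% of all genes were called. At an unadjusted p under 0.05 there were 4 of 10, against 19.6% of all genes. The median difference over the 10 genes was 0.29 on the log2 scale, against -0.01 over all genes. No gene of the 10 was called between DSS+L-Arg and any group it was compared with. At an unadjusted p under 0.05 there was 1 of 10 against DSS (13.5% of all genes), there were 2 of 10 against Ctrl+L-Arg (15.6%), and there were 3 of 10 against Ctrl (12.6%). Between Ctrl+L-Arg and Ctrl limma called 0.0% of all genes and none of the 10, and at an unadjusted p under 0.05 it was 3.44% of all genes and again none of the 10.

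**Figure D2:**
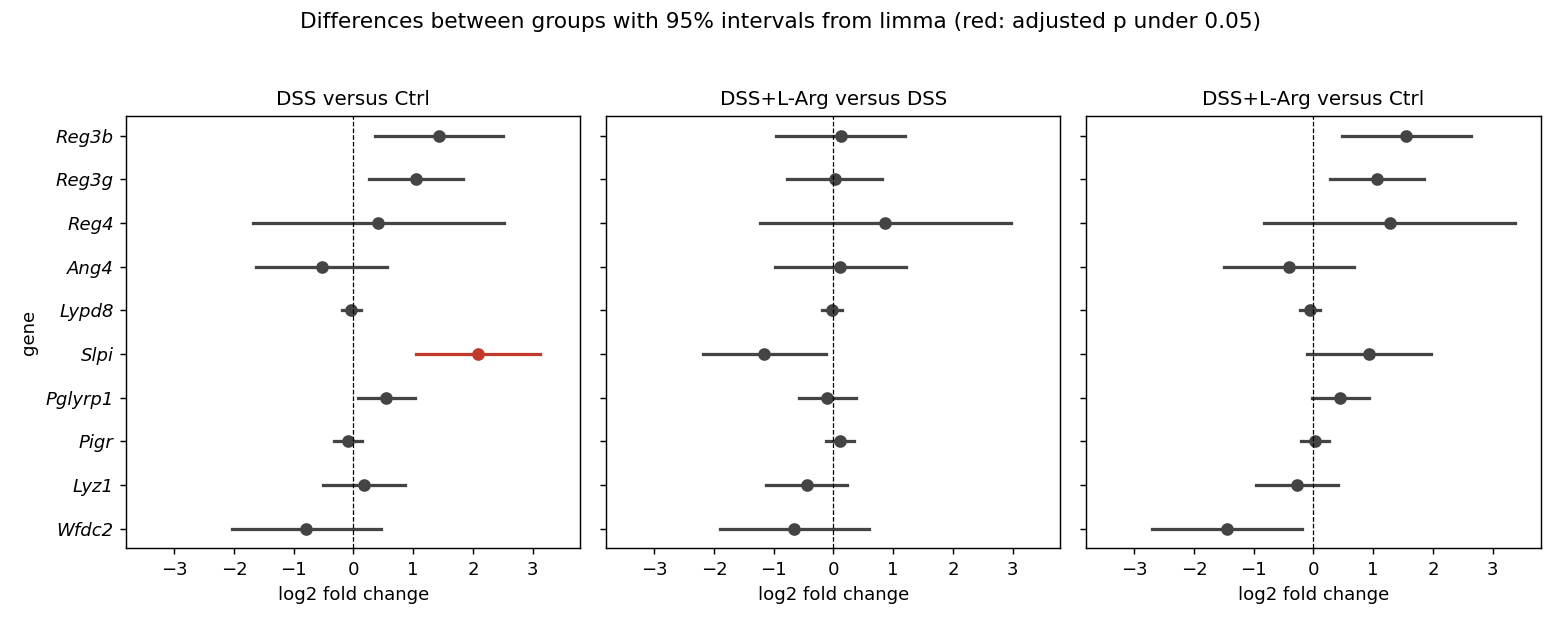
Log2 fold change of each gene between group means (x axis) with its 95% interval from limma, for 3 comparisons of groups of 3 mice; genes at an adjusted p under 0.05 are red. Slpi in DSS versus Ctrl, at 2.08, is the only red interval, and the intervals of Reg3b and Reg3g lie above 0 in DSS and in DSS+L-Arg relative to Ctrl and centre near 0 between these 2 groups.

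Reg3b, the first of the lectins, measured 10.57, 12.79 and 11.69 in the 3 Ctrl mice and 12.78, 12.33 and 11.81 in the Ctrl+L-Arg mice. It measured 13.29, 13.59 and 12.47 in the DSS mice and 12.79, 13.24 and 13.69 in the DSS+L-Arg mice. The DSS group overlapped Ctrl through Ctrl mouse 2, which was higher than DSS mouse 3, and the Ctrl mice spread over more than 2 units. The mean was 1.44 higher in DSS than in Ctrl (95% interval 0.36 to 2.51, adjusted p = 0.129 by limma), a ratio of 2.71. Between DSS+L-Arg and DSS the difference was 0.12 (-0.95 to 1.19, adjusted p = 0.930). Relative to Ctrl the DSS+L-Arg mean was 1.56 higher (0.48 to 2.63), with an unadjusted p = 0.0084 and an adjusted p = 0.248. This passed the threshold the study used, a p under 0.01 with a fold change over 2, as did 0.446% of all genes.

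Reg3g, the lectin at the other end of the Reg row, had the same order of group means. It measured 11.06, 12.74 and 11.68 in Ctrl, 12.42, 12.27 and 12.00 in Ctrl+L-Arg, 12.42, 13.38 and 12.83 in DSS, and 12.78, 12.72 and 13.19 in DSS+L-Arg. Ctrl mouse 2 was again the highest of the Ctrl mice. The mean exceeded that of Ctrl by 1.05 in DSS (0.26 to 1.84, adjusted p = 0.131) and by 1.07 in DSS+L-Arg (0.28 to 1.86, adjusted p = 0.275). Between the DSS+L-Arg and DSS groups the difference was 0.02 (-0.77 to 0.81, adjusted p = 0.986). These intervals allow a change of over 1.5-fold in either direction with L-Arg, so the groups are not shown to be alike. When Ctrl mouse 2, the highest in accessory gland markers, was left out, Reg3b was 1.99 higher in DSS than in Ctrl (adjusted p = 0.0403). Reg3g was then 1.5045 higher (adjusted p = 0.0239), and both passed. Without Ctrl mouse 1, the lowest of the Ctrl mice, these differences were 0.88 for Reg3b (adjusted p = 0.349) and 0.66 for Reg3g (adjusted p = 0.362). For DSS+L-Arg against Ctrl, leaving out these mice gave 1.00 to 2.11 for Reg3b and 0.68 to 1.53 for Reg3g, and neither passed. The part of accessory gland tissue in the values was not tested.

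In the mice without DSS, the means of Ctrl+L-Arg exceeded those of Ctrl by 0.62 for Reg3b (-0.45 to 1.70) and by 0.40 for Reg3g (-0.39 to 1.19), each with an adjusted p = 0.999. The DSS+L-Arg mice did not overlap the Ctrl+L-Arg mice in Reg3b, Reg3g or Slpi, all 3 of which were higher, where 12.9% of all genes were higher without overlap. For Reg3b the margin was small, with 12.79 in the lowest DSS+L-Arg mouse against 12.78 in the highest Ctrl+L-Arg mouse. The differences in means were 0.93 for Reg3b (adjusted p = 0.382) and 0.67 for Reg3g (adjusted p = 0.396). None of the 10 genes was called here, against 0.306% of all genes.

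None of the other 4 genes of the Reg row passed in any comparison between pairs of groups. Reg3a spread from 5.68 to 7.99 with no difference called, and its mean was lower in DSS than in Ctrl (-0.77, -2.21 to 0.67, adjusted p = 0.580). Reg3d lay between 4.37 and 4.77 in all mice, near the 10th percentile of all values (4.64), so it was among the lowest signals. Its mean was 0.21 above Ctrl in DSS (0.00081 to 0.41, adjusted p = 0.254) and 0.24 above it in DSS+L-Arg (0.03 to 0.45, adjusted p = 0.329). Its group means had the order of those of Reg3b and Reg3g, but at so low and narrow a signal this order does not show a shared pattern. Against Ctrl, the DSS mean differed by -0.14 for Reg1 (-0.62 to 0.33, adjusted p = 0.790) and by -0.18 for Reg2 (-0.57 to 0.21, adjusted p = 0.650). The Reg genes resemble each other in sequence, and binding of a related transcript to a probe set was not tested.

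Reg4, a lectin of enteroendocrine and deep crypt secretory cells in the colon, varied more among mice of a group than between groups. It measured 12.32, 9.53 and 11.04 in Ctrl, 12.23, 9.95 and 11.44 in Ctrl+L-Arg, and 9.0, 13.03 and 12.10 in DSS. The DSS+L-Arg mice lay close together at 12.38, 12.03 and 12.31. The lowest value of each of the first 3 groups was thus over 2 units below the lowest DSS+L-Arg mouse, and the highest was near or above the DSS+L-Arg mice. The SD was 1.40 in Ctrl, 2.11 in DSS and 0.18 in DSS+L-Arg. The mean difference was 0.41 between DSS and Ctrl (-1.69 to 2.51, adjusted p = 0.874) and 0.87 between DSS+L-Arg and DSS (-1.23 to 2.97, adjusted p = 0.719), and intervals this wide show neither a change nor its absence.

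Wfdc2, a secreted protein of the whey acidic protein family, had lower means in the DSS and DSS+L-Arg groups, with no difference called. It measured 11.16, 9.54 and 10.87 in Ctrl, 11.02, 9.81 and 10.69 in Ctrl+L-Arg, 8.86, 9.92 and 10.42 in DSS, and 10.12, 8.94 and 8.17 in DSS+L-Arg. The groups overlapped through Ctrl mouse 2 and Ctrl+L-Arg mouse 2, which were low. The difference was -0.79 for DSS against Ctrl (-2.04 to 0.46, adjusted p = 0.499) and -1.45 for DSS+L-Arg against Ctrl (-2.69 to -0.20, adjusted p = 0.330). In the latter comparison 0.0652% of all genes were called and none of these 10. Against Ctrl+L-Arg the difference was -1.43 (-2.68 to -0.18, adjusted p = 0.264), and between DSS+L-Arg and DSS it was -0.66 (-1.90 to 0.59, adjusted p = 0.634).

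The low samples of Reg4 and Wfdc2 were set beside the posterior Hox genes, which mark the distal part of the colon. The study states the same size for both pieces, but the share of RNA from each region is not given. The mean of 8 posterior Hox genes, centred over the 12 mice, was 0.80, -0.78 and 0.88 in Ctrl and 0.92, -0.57 and 0.66 in Ctrl+L-Arg. It was -0.72, -0.19 and -0.0057 in DSS and 0.86, -0.88 and -0.98 in DSS+L-Arg. In Ctrl and Ctrl+L-Arg the mouse with the lowest Hox mean had the lowest Wfdc2 and the lowest Reg4, as did DSS mouse 1 within DSS. In DSS+L-Arg the mice with low Hox means had low Wfdc2, yet Reg4 stayed at 12.03 and 12.31 in them. With the Hox mean as a covariate the Wfdc2 difference was -0.22 for DSS against Ctrl (adjusted p = 0.666) and -0.86 for DSS+L-Arg against Ctrl (adjusted p = 0.173). The Reg4 differences were larger with the covariate, at 1.05 for DSS against Ctrl (adjusted p = 0.526) and 1.95 for DSS+L-Arg against Ctrl (adjusted p = 0.360). Without it they were 0.41 and 1.28. The Reg3b difference between DSS and Ctrl was 1.13 in that fit (adjusted p = 0.162), and the part of the share of distal tissue in any of these values was not tested.

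**Figure D3:**
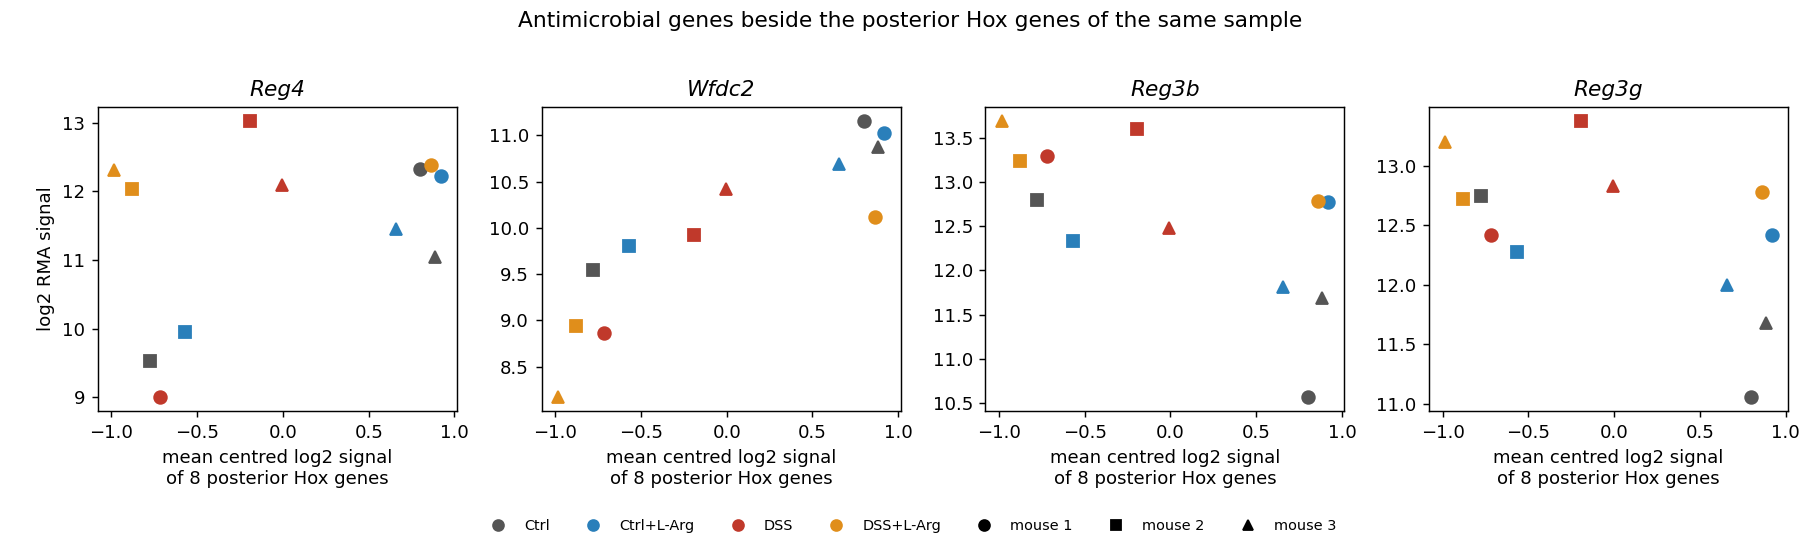
Log2 RMA signal of Reg4, Wfdc2, Reg3b and Reg3g (y axes) against the mean centred log2 signal of 8 posterior Hox genes (x axes) in the same 12 colon samples, coloured by group. Wfdc2 is low where the Hox mean is low in every group, while Reg4 is at 12.03 and 12.31 in the 2 DSS+L-Arg mice with a low Hox mean and at 9.0 to 9.95 in the lowest mice of the other groups.

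Slpi, an inhibitor of neutrophil elastase with antibacterial activity, was the gene with the clearest difference. It measured 6.99, 7.02 and 6.99 in Ctrl and 7.10, 7.02 and 6.86 in Ctrl+L-Arg. It measured 7.89, 9.72 and 9.64 in DSS and 8.92, 7.65 and 7.21 in DSS+L-Arg. Every DSS and DSS+L-Arg mouse was above every mouse without DSS, with DSS+L-Arg mouse 3 the closest to them, and the 2 groups that had DSS overlapped. Slpi rose by 2.08 from Ctrl to DSS (1.04 to 3.12, SE 0.473, adjusted p = 0.0348), a ratio of 4.23. Between DSS+L-Arg and DSS the difference was -1.15 (-2.19 to -0.12), with an unadjusted p = 0.0323 and an adjusted p = 0.320, and it was not called, like the other 9 genes in that comparison, where 0.637% of all genes were. The DSS+L-Arg mean was 0.93 above Ctrl (-0.11 to 1.97, adjusted p = 0.445), with no overlap, where 13.5% of all genes were higher without overlap.

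The Slpi call was a narrow one. The difference of 2.08 had an adjusted p = 0.105 when Ctrl and DSS were fitted alone, 0.0576 with the mouse number as a block, 0.0522 with a trended and robust prior, and with array weights it was 1.61 (adjusted p = 0.0669). The call was also lost without Ctrl mouse 1, 2 or 3 (adjusted p = 0.107, 0.0842 and 0.117), without DSS mouse 2 or 3 (0.108 and 0.0817), without Ctrl+L-Arg mouse 1 (0.0550) and without DSS+L-Arg mouse 2 (0.0504). In each of these the difference stayed between 1.61 and 2.09. The call held in 11 of the 22 alternative fits. Among those the difference was 2.36 with the posterior Hox covariate (adjusted p = 0.0126), 2.23 with the epithelial marker covariate (0.0032) and 2.68 without DSS mouse 1 (0.0029). In a comparison added after seeing the data, the 6 mice given DSS against the 6 not given it, Slpi was 1.51 higher (0.77 to 2.24, adjusted p = 0.0239) and was again the only gene of the 10 called, against 7.0% of all genes. At an unadjusted p under 0.05 there were 5 of 10 against 23.6%, and at the threshold of the study 2 of 10, Reg3b and Slpi, against 1.25%. Its call there was lost without Ctrl mouse 1 or 3 or Ctrl+L-Arg mouse 1 or 3. In that comparison Reg3b was 1.18 higher (0.43 to 1.94, adjusted p = 0.0634), Reg3g 0.86 (0.30 to 1.41, adjusted p = 0.0674) and Pglyrp1 0.48 (0.15 to 0.82, adjusted p = 0.0819). Other genes passed in it when a mouse was left out, Reg3b and Reg3g without Ctrl mouse 2, Reg3g and Pglyrp1 without DSS mouse 1, Reg3b without DSS mouse 3, and Lyz1 without Ctrl+L-Arg mouse 2.

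Neutrophil markers moved with Slpi between groups. Their summed signal, on the log2 scale, was 11.08 to 12.74 in Ctrl, 10.66 to 12.61 in Ctrl+L-Arg, 13.77 to 15.25 in DSS and 11.86 to 13.40 in DSS+L-Arg. Of 20 measured, 14 rose with DSS and 6 fell from DSS to DSS+L-Arg. Ngp, a granule protein of neutrophils, rose by 4.82 (adjusted p = 0.0015) and then fell by 4.46 (adjusted p = 0.0061). Within groups the order differed, since DSS mouse 1 had a neutrophil median of 1.86, close to the 1.77 of DSS mouse 2, but Slpi at 7.89 against 9.72. DSS+L-Arg mouse 1 had Slpi at 8.92, above DSS mouse 1, with a neutrophil median of 0.52. The part of neutrophils in the Slpi signal was not tested. Outside the 10 genes, 3 centred profiles over the 12 mice were most like that of Slpi by root mean square difference. They were Aldh1a3, a retinaldehyde dehydrogenase (0.192), Cxcl5, a neutrophil chemokine of epithelium (0.318), and Rrm2, a subunit of ribonucleotide reductase (0.318).

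**Figure D4:**
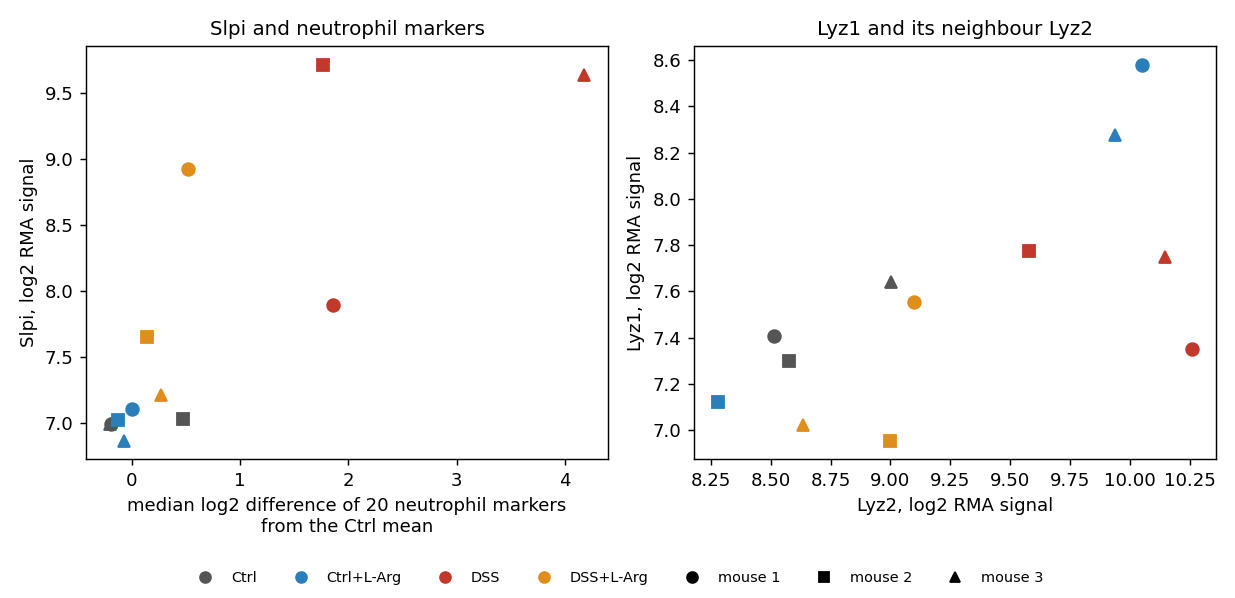
Left, Slpi (log2 RMA signal) against the median log2 difference of 20 neutrophil markers from the Ctrl mean; right, Lyz1 against Lyz2 (both log2 RMA signal), with 1 point per mouse coloured by group. Slpi is at 7.89 and 9.72 in the 2 DSS mice whose neutrophil medians are 1.86 and 1.77, and the 2 highest Lyz1 values are the Ctrl+L-Arg mice with Lyz2 at 10.05 and 9.94.

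Pglyrp1, which binds peptidoglycan and is made by neutrophils as well as by epithelium, measured 12.45, 12.17 and 12.55 in Ctrl, 12.58, 12.13 and 12.58 in Ctrl+L-Arg, 12.59, 12.87 and 13.36 in DSS, and 13.17, 12.53 and 12.82 in DSS+L-Arg. All DSS mice were above all Ctrl mice, by a margin of under 0.1. With Slpi it was 1 of 2 genes of the 10 that were higher without overlap in DSS than in Ctrl, against 10.7% of all genes. The difference was 0.55 (0.08 to 1.03, adjusted p = 0.182) and did not pass. Between DSS+L-Arg and DSS it was -0.10 (-0.58 to 0.37, adjusted p = 0.862), and DSS+L-Arg was 0.45 above Ctrl (-0.02 to 0.92, adjusted p = 0.422). With the posterior Hox mean as a covariate the DSS difference was 0.73 and passed (adjusted p = 0.0199). The highest value was that of DSS mouse 3, which also had the highest neutrophil median of 4.18, and the part of neutrophils was not tested.

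Lyz1, the lysozyme of Paneth cells in the small intestine, measured 7.41, 7.30 and 7.64 in Ctrl and 8.58, 7.12 and 8.28 in Ctrl+L-Arg. It measured 7.35, 7.77 and 7.75 in DSS and 7.55, 6.96 and 7.02 in DSS+L-Arg. Ctrl+L-Arg mice 1 and 3 held the highest values of all, and mouse 2 of that group was among the lowest. The difference was 0.54 for Ctrl+L-Arg against Ctrl (-0.14 to 1.22, adjusted p = 0.999), 0.18 for DSS against Ctrl (-0.51 to 0.86, adjusted p = 0.823) and -0.81 for DSS+L-Arg against Ctrl+L-Arg (-1.50 to -0.13, adjusted p = 0.248). Its effect of L-Arg differed with and without DSS by -0.99 (-1.95 to -0.03), with an unadjusted p = 0.0449 and an adjusted p = 0.445, where 0.0752% of all genes were called. It was the only gene of the 10 with an unadjusted p under 0.05 for that difference, against 10.8% of all genes. Without Ctrl+L-Arg mouse 2 both of the last values passed, at -1.25 (adjusted p = 0.0406) and -1.43 (adjusted p = 0.0499).

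Lyz2, the lysozyme of macrophages and other myeloid cells, lies next to Lyz1 in the gene order and resembles it in sequence. It measured 8.51, 8.58 and 9.0 in Ctrl, 10.05, 8.28 and 9.94 in Ctrl+L-Arg, 10.26, 9.58 and 10.15 in DSS, and 9.10, 9.0 and 8.64 in DSS+L-Arg. The same Ctrl+L-Arg mice were high for Lyz1 and Lyz2, whereas in DSS mice Lyz2 was high and Lyz1 was not. Lyz2 was 1.30 higher in DSS than in Ctrl (adjusted p = 0.0856). Ctrl+L-Arg mouse 3 also had the highest median of monocyte and macrophage markers outside the DSS group, at 0.71. The summed signal of these 21 markers was 11.23 to 11.49 in Ctrl, 11.22 to 12.23 in Ctrl+L-Arg, 12.61 to 13.66 in DSS and 11.59 to 11.84 in DSS+L-Arg. Of the 21, 13 rose with DSS and 5 fell from DSS to DSS+L-Arg, among them Tyrobp, a myeloid signaling adaptor, by 1.74 (adjusted p = 0.0246). The part of macrophages, and of shared sequence, in the Lyz1 signal was not tested.

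Ang4, a ribonuclease of Paneth and goblet cells that kills bacteria, showed no pattern by group. It measured 7.33, 7.54 and 8.14 in Ctrl, 7.38, 8.71 and 6.70 in Ctrl+L-Arg, 7.56, 6.99 and 6.86 in DSS, and 6.28, 7.62 and 7.86 in DSS+L-Arg. The 2 groups given L-Arg spanned the whole range. The difference was -0.53 for DSS against Ctrl (-1.62 to 0.56, adjusted p = 0.631) and 0.12 for DSS+L-Arg against DSS (-0.97 to 1.21, adjusted p = 0.933). No probe set carried the related gene Ang alone. Of 8 measured Paneth cell markers, Pnliprp2, a pancreatic lipase-related protein, rose by 1.83 with DSS (adjusted p = 0.0347) and Clps, the cofactor of pancreatic lipase, fell by 2.55 (adjusted p = 0.0188). The defensin gene Defa24, the defining marker among them, was the only defensin measured on this list of 13 genes. It lay between 3.42 and 3.85 in 11 mice, below the 10th percentile of all values (4.64), so these values show no clear expression. It was at 5.62 in DSS mouse 2, whose Ang4 of 6.99 and Lyz1 of 7.77 were within the range of the other mice. Of 15 measured goblet and deep crypt secretory markers, only Clca1, a secreted component of mucus, passed with DSS, and it fell by 1.42 (adjusted p = 0.0400).

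Lypd8 and Pigr were the steadiest of the 10. Lypd8 measured 14.27, 14.25 and 14.29 in Ctrl, 14.29, 14.26 and 14.29 in Ctrl+L-Arg, 14.25, 14.24 and 14.22 in DSS, and 14.31, 14.12 and 14.22 in DSS+L-Arg. The DSS mice were below all Ctrl mice by a margin of under 0.01, and Lypd8 was the only gene of the 10 that was lower without overlap in that comparison, against 14.3% of all genes. The difference was -0.04 (-0.20 to 0.13, adjusted p = 0.860). Its signal lay 0.20 to 0.46 below the highest signal on each array, so how far a larger amount of RNA could have raised it is not known.

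Pigr measured 12.77, 12.67 and 12.77 in Ctrl, 12.92, 12.61 and 12.87 in Ctrl+L-Arg, 12.55, 12.83 and 12.57 in DSS, and 12.85, 12.67 and 12.76 in DSS+L-Arg. All groups overlapped. The difference was -0.09 for DSS against Ctrl (-0.32 to 0.15, adjusted p = 0.726) and 0.11 for DSS+L-Arg against DSS (-0.13 to 0.34, adjusted p = 0.683), so these data leave room for a change of Pigr of at most 0.34 in either direction at the 95% level in these comparisons. None of the 15 measured genes of IgA and plasma cells passed in any comparison between pairs of groups. In the comparison of all mice given DSS with all others, Jchain, the joining chain of the polymeric IgA that Pigr carries, fell by 1.42 (adjusted p = 0.0296) and Prdm1, a transcription factor of plasma cells that is also made by other cells, rose by 1.52 (adjusted p = 0.0130), both named after their values were seen. In that comparison Pigr differed by -0.07 (-0.23 to 0.10, adjusted p = 0.655).

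Of 43 other antimicrobial and lectin genes measured, 7 rose and 1 fell with DSS, and their median difference was 0.09, against -0.01 over all genes. Lcn2, which binds bacterial siderophores, rose by 4.34 (adjusted p = 0.0012), and S100a8 and S100a9, the subunits of the metal-binding protein calprotectin, rose by 3.91 (adjusted p = 0.0080) and 3.57 (adjusted p = 0.0046). Mptx1, a secreted pentraxin of the intestine, fell by 3.84 (adjusted p = 0.0486). From DSS to DSS+L-Arg, Lcn2 fell by 3.70 (adjusted p = 0.0065) and S100a9 fell by 3.16 (adjusted p = 0.0259), and no other gene of the set passed. Lcn2, S100a8 and S100a9 are also on the list of neutrophil markers.

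Of that set, 3 further genes were named after their values were seen. Retnlb, a goblet cell protein with bactericidal activity, was 3.46 higher in DSS (adjusted p = 0.0042) and 3.36 higher in DSS+L-Arg (adjusted p = 0.0381) than in Ctrl, and was the only gene of the set to pass in the latter. Retnlb differed by -0.10 between DSS+L-Arg and DSS (-1.16 to 0.97, adjusted p = 0.945). In DSS+L-Arg against Ctrl+L-Arg the genes that rose were Retnlb by 3.02, and Duoxa2 and Duox2, which form the epithelial NADPH oxidase, by 2.02 and 1.61. Against Ctrl, Duoxa2 was 0.85 higher (adjusted p = 0.115) and Duox2 0.61 higher (adjusted p = 0.0774) in DSS, and the Ctrl+L-Arg means lay below Ctrl, at -0.66 and -0.56 (adjusted p = 0.999 for each). Reg3b and Reg3g had the same order of group means as each other, with DSS+L-Arg and DSS above Ctrl+L-Arg and Ctrl, but without passing.

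Of 32 measured cytokine and sensor genes known to act upstream of these proteins, 4 rose with DSS and none fell. Il22 was among the 36 genes listed but was not measured, so these values show nothing about it. Il6 rose by 1.70 (adjusted p = 0.00019), Socs3, a feedback inhibitor induced by STAT3, rose by 2.46 (adjusted p = 0.0069), Osmr, a receptor subunit for oncostatin M, rose by 1.55 (adjusted p = 0.0149), and Stat3 itself rose by 0.56 (adjusted p = 0.0303). Il6 fell by 1.52 from DSS to DSS+L-Arg (adjusted p = 0.00094) and was the only one to do so. Reg3b and Reg3g, known targets of this signaling, differed by 0.12 and 0.02 between the same groups. Whether the change in Il6 differs from that of the Reg3 genes was not tested.

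The likeness of profiles over the 12 mice gave other genes for each member that spanned over 2 units. Nearest to Reg3g were Gda (root mean square difference 0.342), Pde11a (0.362) and Tifa (0.378), and nearest to Reg3b were Myrfl (0.506), Ly6d (0.520) and Frmd3 (0.561). For Reg4 the nearest were Gal3st2c (0.630), Aqp8, a water channel of colonocytes (0.653), and Rnf152 (0.673). For Wfdc2 they were Tbc1d19 (0.418), Ces2g (0.419) and Plbd1 (0.447), and for Ang4 they were Ppara (0.314), Bche (0.321) and Gm11437 (0.340). The 10 genes themselves were left out of this search, so it does not show how near Reg3b and Reg3g were to each other.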

How the data were processed

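RNA of 12 mouse colon samples was measured on Affymetrix Gene ST arrays. The authors deposited a log2 signal for each probe set, and the submitters' processing notes name Affymetrix Expression Console 1.1, RMA and genome build mm9. This method removes background, gives all arrays the same distribution and combines the probes of a set, so a shift shared by most genes would not show. Of 35556 probe sets, 21789 had 1 gene in the platform table, 1621 had several and 12146 were not in it. The probe set with the highest mean was kept for each of 19938 genes, of which 19856 matched the reference by Entrez identifier. Arrays of a group differed by over 0.01 in at least 95.1% of genes, so no array repeats another of its own group. Arrays of different groups were not compared in this way.

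The model was fitted in limma 3.58.1 (R 4.3.3) to all 12 arrays, with a mean for each of the 4 groups (8 residual and 3.37 prior degrees of freedom) and Benjamini-Hochberg adjustment over all genes. The labels call the samples biological replicates. The study names SAM, which was not run here, and its threshold (p under 0.01, fold over 2) was applied to the limma fit. The fit was tested on simulated data. The 10 genes, the 12 other lists (207 of 234 listed genes measured) and the tests were chosen with earlier results of these data known. From each other list up to 4 called genes with the largest change were named in DSS versus Ctrl and in DSS+L-Arg versus DSS, together with close relatives of the 10 genes and the 3 nearest profiles. The Paneth cell, pancreas, neutrophil and antimicrobial lists share some genes. As alternatives, the groups of a comparison were fitted alone, the mouse number was a block, arrays were centred on their medians or quantile-normalized again, dim genes (those not above the 30th percentile in 3 or more arrays) were dropped, probe sets of a gene were averaged, the prior was trended and robust, arrays were weighted, posterior Hox genes or epithelial markers were a covariate, and each array was left out in turn. A group then had 2 arrays and was assumed to vary like the others. All 3 same-numbered pairs of mice deviated together from their group means only between Ctrl and Ctrl+L-Arg (correlations of 0.205, 0.478 and 0.261), and there the block changed no call among the 10 genes. Promoters were aligned with Biopython 1.88, and tables were read with pandas 2.3.3 in Python 3.11.15. Plots were drawn with matplotlib 3.10.9.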

Additional observations from a re-analysis of the deposited data

How the results depend on the processing

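The number of the 10 genes called in DSS versus Ctrl was 1, and it was 0 with only the groups compared, with the replicate block on the mouse number, with a trended and robust prior and with array weights, and 2 (Pglyrp1 and Slpi) with the posterior Hox covariate. Leaving out 1 mouse gave 0 to 2. For DSS+L-Arg versus DSS the count of 0 became 1 (Slpi, -1.70, adjusted p = 0.0403) with the epithelial marker covariate, and leaving out 1 mouse gave 0 to 1 (Slpi, -1.75, adjusted p = 0.0461, without DSS mouse 1). For DSS+L-Arg versus Ctrl it was 1 (Reg3b) at the threshold of the study. Leaving out 1 mouse gave 0 to 1 for DSS+L-Arg versus Ctrl+L-Arg and for the interaction of L-Arg with DSS. With either drink, DSS versus no DSS gave 1, and 2 with array weights (Slpi and Wfdc2), with the posterior Hox covariate (Pglyrp1 and Slpi), with the epithelial marker covariate (Slpi and Wfdc2) and at the threshold of the study (Reg3b and Slpi), and 0 to 3 with a mouse left out. The replicate block changed no other count. In the pairs of groups other than Ctrl and Ctrl+L-Arg, at least 1 same-numbered pair of mice did not deviate together.

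Of 1310 alternative values of the fold changes, 1225 kept their direction and side of the threshold, 15 newly passed, 15 no longer passed and 55 changed sign, none of which passed in either fit. With array weights, Reg4 was -0.50 in DSS versus Ctrl, Pglyrp1 0.0511 in DSS+L-Arg versus DSS and Wfdc2 0.0778 in Ctrl+L-Arg versus Ctrl. With the epithelial marker covariate, Reg3g was -0.0386 and Reg4 -0.37 in DSS+L-Arg versus DSS, Slpi 0.50 and Wfdc2 0.51 in Ctrl+L-Arg versus Ctrl, Reg4 -1.01 and Ang4 0.14 in DSS+L-Arg versus Ctrl+L-Arg, Pigr -0.0232 in DSS+L-Arg versus Ctrl and Reg4 -0.13 in DSS versus no DSS. With median centring, Lypd8 was 0.0066 in DSS+L-Arg versus DSS and 0.0009 in DSS+L-Arg versus Ctrl, and Pigr 0.0183 in DSS+L-Arg versus Ctrl+L-Arg. With a further quantile normalization, Lypd8 was 0.0429 in DSS+L-Arg versus DSS, -0.0233 in Ctrl+L-Arg versus Ctrl and 0.0167 in DSS+L-Arg versus Ctrl+L-Arg, and Wfdc2 was 0.0425 in Ctrl+L-Arg versus Ctrl. With the posterior Hox covariate, Pigr was 0.027 in DSS+L-Arg versus Ctrl+L-Arg and 0.0004 in DSS versus no DSS. With 1 mouse left out at a time, the fold changes that changed sign ranged as follows. In DSS versus Ctrl, Reg4 lay between -0.41 and 1.60. In DSS+L-Arg versus DSS, Reg3b lay between -0.20 and 0.36, Reg3g between -0.21 and 0.27, Reg4 between -0.32 and 1.69, Ang4 between -0.19 and 0.60, Lypd8 between -0.0671 and 0.0268, and Pglyrp1 between -0.28 and 0.11. In Ctrl+L-Arg versus Ctrl, Reg4 lay between -0.47 and 0.92, Ang4 between -0.62 and 0.38, Lypd8 between -0.0011 and 0.0183, Slpi between -0.0592 and 0.0602, Pglyrp1 between -0.074 and 0.19, and Wfdc2 between -0.51 and 0.33. In DSS+L-Arg versus Ctrl+L-Arg, Ang4 lay between -0.79 and 0.21 and Pigr between -0.13 and 0.0161. In DSS+L-Arg versus Ctrl, Ang4 lay between -0.72 and 0.0738 and Pigr between -0.025 and 0.0638. The causes were not tested.

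The 3 mice per group limit all values, as does the unknown share of RNA from proximal and distal tissue in each sample. Lypd8 was near the highest signal of the arrays.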
